A study of Mus musculus with 34 samples.

Results

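DNA replication and Fanconi repair genes are the 39 genes described here, of 54532 gene IDs counted in mouse blood. They were chosen by name as parts of the replication machinery, of the supply and packaging lines that run beside it, and of the Fanconi and recombination repair of DNA, and each symbol matched 1 Ensembl ID. Messenger RNA was sequenced from the blood of wild-type (WT) mice in 4 groups: 9 mice given PBS (phosphate-buffered saline), 10 given ALY688, 4 given LPS (lipopolysaccharide, a component of the bacterial outer membrane) and 7 given ALY688 with LPS. ALY688 is an agonist of the adiponectin receptors, per the series title, and the series text sets out a search for blood-borne markers of its action and a test of its anti-inflammatory effect in a sublethal LPS model. No dose, sampling time, sex or age is given for these mice in the sources used here. The series text names plasma for the former experiment and whole blood for the latter, while each sample is labelled blood. Mice with and without LPS may therefore belong to separate experiments, and in any comparison across LPS the treatment and the experiment cannot be told apart.

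Before a cell divides it copies its genome once. Origin recognition proteins, Cdc6 and Cdt1 load the ring-shaped MCM helicase onto DNA in G1, and in S phase Cdc45, the GINS complex and Mcm10 turn that ring into a moving helicase, behind which polymerases, the Pcna clamp and DNA ligase build the new strands. Fanconi proteins, with Brca1, Brca2 and the helicase Blm, deal with crosslinked DNA and broken forks. Many of these genes are switched on together before S phase by E2F transcription factors. Most circulating leukocytes do not divide, so in blood these transcripts are expected mainly from the few cells that are still cycling, such as activated lymphocytes, marrow precursors that have entered the blood and nucleated or very young red cells.

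The promoters are shown first because a shared E2F site is the textbook link between these genes. RefSeq start sites (GRCm38.p6) gave a window for 33 of the 39 genes, and none for Mcm4, Gins1, Gins2, Gins4, Pole and Fancd2. The letters TTTCCCGC, TTTCGCGC, TTTGCCGC and TTTGGCGC were searched on both strands, overlapping matches included. In the 250 bases before the start, 10 of the 33 genes held at least 1 match (30.3%), against 583 of 27025 genes with a window (2.157%). The 10 were Orc1, Cdc6, Mcm5, Mcm6, Mcm7, Gins3, Rfc3, Pola1, Uhrf1 and Brca2, and Mcm6 had the most, with 3. With the window extended to 50 bases after the start the shares were 45.45% of the 33 genes and 2.605% of all. The stretches below are 5 of these promoters, 1 for each role that has a printable one, written on the strand of the gene with the E2F letters in capitals.
Cdc6, origin licensing, chr11:98907982-98908066, plus strand: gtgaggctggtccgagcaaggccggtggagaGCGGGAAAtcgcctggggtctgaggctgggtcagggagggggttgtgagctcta
Mcm5, MCM ring, chr8:75109314-75109413, plus strand: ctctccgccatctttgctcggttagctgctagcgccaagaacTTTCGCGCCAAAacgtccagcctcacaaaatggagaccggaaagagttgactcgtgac
Pola1, polymerases, chrX:93632240-93632339, minus strand: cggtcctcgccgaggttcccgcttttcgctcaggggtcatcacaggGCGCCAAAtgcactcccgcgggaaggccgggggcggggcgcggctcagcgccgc
Uhrf1, chromatin, chr17:56304082-56304181, plus strand: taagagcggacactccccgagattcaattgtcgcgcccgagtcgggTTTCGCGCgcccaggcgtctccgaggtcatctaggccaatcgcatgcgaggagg
Brca2, repair, chr5:150522407-150522506, plus strand: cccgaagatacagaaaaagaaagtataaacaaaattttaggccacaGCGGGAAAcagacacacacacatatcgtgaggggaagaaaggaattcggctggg

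In Mcm5 the capitals hold 2 overlapping matches, TTTCGCGC and GCGCCAAA. The stretches of Cdc6 and Uhrf1 lie before the RefSeq start but inside the annotated bodies of those genes, outside their exons, and those of Mcm5, Pola1 and Brca2 lie outside any annotated gene. A match is a run of letters and not a measured binding site, and its absence says only that these letters are not in the window. The share in a list of 26 mitotic genes, which act later in the cell cycle, was 4.348% of 23 with a window. Among the lists of other replication and repair genes it was 12.5% of 56, and 21.43% with the longer window. The CCAAT box, another common promoter motif (CCAAT on either strand), stood before 78.26% of the mitotic genes, 63.64% of the 33 genes and 37.49% of all genes. Both lists thus lay above the share of all genes, with the mitotic list the higher.

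Totals ran from 9554964 to 17338214 counts per library, and the 39 genes together took between 561 counts (PBS mouse 5) and 31361 (in the LPS group). Globin transcripts of red cells took 18.4% to 43.7% of the counts in LPS mice and 45.1% to 64.3% in PBS mice, ranges that do not overlap; the ALY688 mice had 42.2% to 60.8%, and those given both agents 26.3% to 54.3%. In 6 libraries fewer than 16000 genes had a count: PBS mice 5, 6 and 9, ALY688 mouse 7, and ALY688+LPS mice 6 and 8. The blood label was checked against markers of its cells: erythroid, platelet, B cell, T cell and neutrophil markers were present in every group. LPS mouse 2 stood apart in the primary-granule genes of neutrophil precursors, with Mpo at 93.9 CPM (counts scaled to a common library size, here by TMM) against at most 0.58 in the other LPS mice and 3.61 in any other library. Elane, another such gene, stood at 53.0 CPM there and at most 1.58 elsewhere.

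In mice given LPS alone, most of the replication and repair genes were higher than in mice given PBS. A gene is called changed where the edgeR test gave an adjusted p below 0.05 over all genes tested. Of the 39 genes, 37 had enough counts to be tested; 31 rose, none fell and 6 did not pass, while over all 12353 genes tested 20.9% rose and 17.9% fell. The median log2 fold change of the 37 was 1.45 (2.72-fold), with a range from -0.08 for Pold1 to 3.91 for Mcm10, against a median of -0.04 over all genes. Since the test requires enough counts in some libraries, genes high with LPS pass it more easily, and Orc1 and Fen1 did not enter. The levels of all LPS mice lay above all PBS mice for 18 of the 37, as they did for 14.1% of all genes tested; none of the 37 lay wholly below, against 5.26% of all. In bulk blood, more cells that express a gene and more RNA per cell cannot be told apart.

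**Figure D1:**
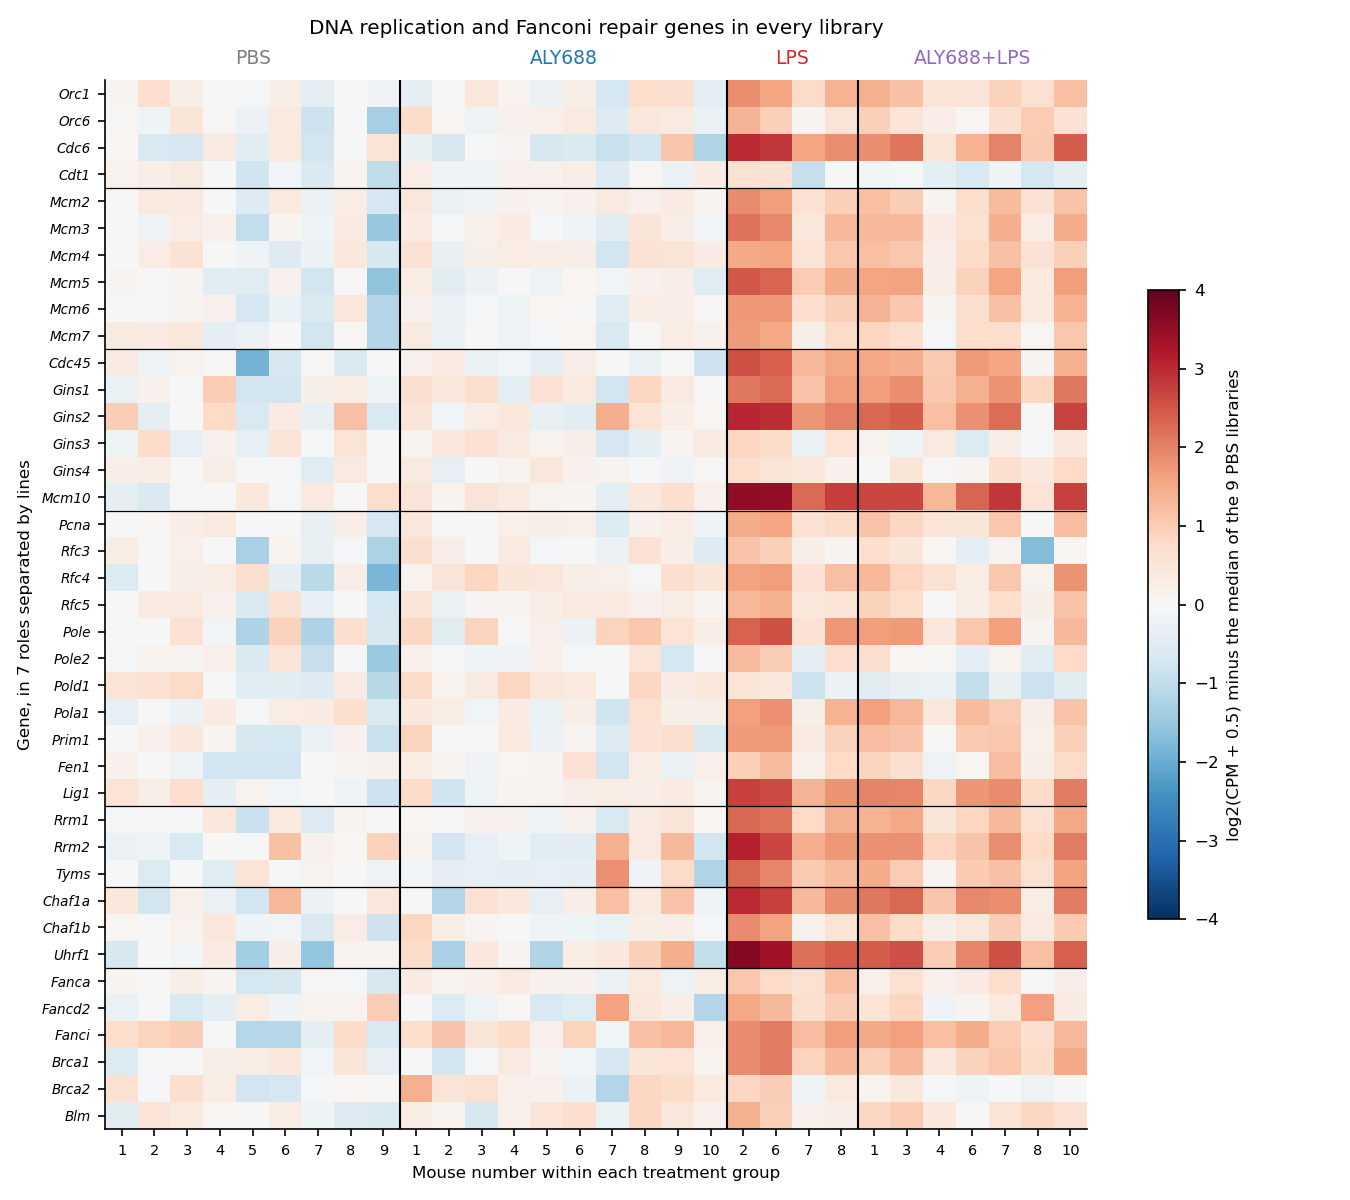
Level of each of the 39 genes (rows, in 7 roles separated by lines) in each of the 30 libraries (columns, mouse numbers under 4 treatment groups), as log2(CPM + 0.5) minus the median of the 9 PBS libraries; red is higher and blue lower. The LPS columns are red for most genes, those of mice 2 and 6 most of all, and the rows of Cdt1, Pold1, Gins3 and Gins4 stay pale.

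Origin licensing was split. Cdc6, the loader of the MCM ring, stood between 0.349 and 1.58 CPM in the PBS mice (median 0.923) and at 10.8, 9.64, 3.73 and 4.65 CPM in LPS mice 2, 6, 7 and 8. Every LPS mouse lay above every PBS mouse, and the log2 fold change was 3.04 ± 0.38 (SE, adjusted p = 1.35e-05). Orc6, a small subunit of the origin recognition complex, had 0.675 to 3.64 CPM with PBS (median 2.46) and 7.04, 5.22, 2.68 and 3.74 CPM in the same LPS mice. The groups overlap, the change was 0.96 ± 0.33 (adjusted p = 0.029), and it did not pass without LPS mouse 2 or without LPS mouse 6 (adjusted p up to 0.156). Cdt1, which works with Cdc6 in loading and is itself destroyed as S phase begins, did not pass, at 0.24 ± 0.27 (adjusted p = 0.504). Orc1 had 31 counts in all PBS libraries and 181 in the 4 LPS libraries, and in a fit without the filter on low counts it gave 2.23 ± 0.46 (adjusted p = 0.000558).

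All 6 subunits of the MCM ring rose, by 1.16 (Mcm4) to 2.15 (Mcm5) on the log2 scale. Mcm5 stood between 3.83 and 14.2 CPM with PBS (median 12.7) and at 72.9, 65.9, 26.2 and 36.3 CPM in LPS mice 2, 6, 7 and 8, with no overlap (2.15 ± 0.28, adjusted p = 2.2e-05). Mcm6 stood between 7.43 and 23.8 CPM with PBS (median 17.3) and at 58.3, 58.7, 28.0 and 33.7 CPM with LPS, again with no overlap (1.45 ± 0.25, adjusted p = 0.000263). Mcm2 and Mcm3 did not overlap between the groups either, while Mcm4 and Mcm7 did. The ring is a hexamer of 1 copy of each subunit. Per kilobase of exon, the averages over the 4 groups ran from 3.13 CPM for Mcm2 to 6.52 CPM for Mcm5.

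Among the genes that activate the helicase, 4 rose and 2 GINS subunits did not pass. Mcm10, which is needed to start unwinding, had the largest change of the 37: it stood between 0.172 and 1.13 CPM with PBS (median 0.507) and at 11.3, 11.0, 4.4 and 6.42 CPM in LPS mice 2, 6, 7 and 8 (3.91 ± 0.35, adjusted p = 6.75e-07). Its groups were wide apart, but each PBS library held only 2 to 7 counts of it. Cdc45, the partner of MCM and GINS at the fork, went from 0.0 to 1.84 CPM with PBS (median 1.35) to 10.3, 9.28, 4.01 and 4.94 CPM (2.52 ± 0.36, adjusted p = 5.2e-05), without overlap. The 4 GINS subunits form 1 complex but did not move alike: Gins1 rose by 2.55 ± 0.47 and Gins2 by 2.97 ± 0.55, while Gins3 (0.40 ± 0.32, adjusted p = 0.334) and Gins4 (0.36 ± 0.19, adjusted p = 0.144) did not pass. Counts were few with PBS, at 0 to 11 per library for Gins1 and 0 to 12 for Gins2. Whether the 4 subunits differ from each other was not tested. Exons of Gins2 share 67.3% of their bases with Gse1 on the opposite strand, and as the strand setting of the counting is not given, reads of both cannot be told apart.

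Of 10 tested genes for polymerases, clamp and strand joining, 8 rose. Lig1, the ligase that seals Okazaki fragments, stood between 2.25 and 7.34 CPM with PBS (median 4.43) and at 32.2, 29.4, 12.2 and 16.8 CPM with LPS, with no overlap (2.20 ± 0.27, adjusted p = 1.07e-05). Pcna, the sliding clamp, had 13.5 to 28.3 CPM with PBS (median 21.9) and 62.4, 66.2, 32.6 and 36.7 CPM with LPS, also with no overlap (1.09 ± 0.20, adjusted p = 0.000457). Pcna was the most abundant of the 39 per kilobase of exon, at 13.9 CPM per kilobase averaged over the 4 groups. The clamp loader subunits Rfc3, Rfc4 and Rfc5 rose by 0.85, 1.71 and 0.95, though the call for Rfc3 was lost in 6 of 13 fits that each left out 1 library (PBS mouse 2, 4, 7 or 8, or LPS mouse 2 or 6; adjusted p up to 0.182). The catalytic subunits behaved differently: Pole, of the leading-strand polymerase, rose by 2.05 ± 0.41 and Pola1, of the primase complex, by 1.37 ± 0.28, while Pold1, of the lagging-strand polymerase, gave -0.08 ± 0.32 (adjusted p = 0.855, 95% interval -0.71 to 0.54). Pold1 levels ran from 11.0 to 42.3 CPM with PBS and stood at 35.6, 33.7, 13.3 and 20.99 CPM with LPS, inside the PBS range. Pole2, an accessory subunit of the leading-strand polymerase, missed the threshold (1.01 ± 0.40, adjusted p = 0.056) but passed without PBS mouse 6 or LPS mouse 7, and Prim1, the primase, rose by 1.47 ± 0.29. Fen1, the flap nuclease that trims Okazaki fragments, was not tested, and gave 1.98 ± 0.58 (adjusted p = 0.0143) in the fit without the filter.

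All 3 genes of nucleotide supply rose, and for each the groups did not overlap. Tyms, which makes thymidylate, stood between 0.948 and 2.58 CPM with PBS (median 1.62) and at 9.9, 7.8, 3.92 and 4.55 CPM in LPS mice 2, 6, 7 and 8 (2.03 ± 0.28, adjusted p = 3.82e-05). Rrm1, the large subunit of ribonucleotide reductase, stood between 5.16 and 13.8 CPM with PBS (median 9.94) and at 50.8, 46.8, 17.6 and 27.6 CPM with LPS (1.78 ± 0.25, adjusted p = 4e-05). Its small subunit Rrm2 rose by 2.24 ± 0.34. The 3 chromatin genes rose as well. Uhrf1, which reads hemimethylated DNA behind the fork and recruits Dnmt1, went from 0.699 to 3.96 CPM with PBS (median 3.02) to 44.8, 35.5, 15.6 and 18.5 CPM, with no overlap (3.39 ± 0.34, adjusted p = 2.42e-06). Chaf1a, the large subunit of the histone chaperone CAF-1, had 0.573 to 4.06 CPM with PBS (median 1.33) and 14.1, 11.6, 4.01 and 6.13 CPM with LPS (2.50 ± 0.39, adjusted p = 0.000123). PBS mouse 6 at 4.06 CPM reached past LPS mouse 7, so these groups overlap. Chaf1b, its partner, rose by 1.38 ± 0.33. As a limit, 52.5% of the exon bases of Chaf1a are shared with Ubxn6 on the opposite strand.

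Among the Fanconi and recombination genes, 5 of 6 rose. Brca1, which acts at forks and in the choice of break repair, stood between 0.922 and 2.36 CPM with PBS (median 1.56) and at 7.21, 8.09, 3.34 and 4.55 CPM in LPS mice 2, 6, 7 and 8, with no overlap (1.76 ± 0.28, adjusted p = 0.000119). Fanca, of the Fanconi core complex that ubiquitinates Fancd2 and Fanci, stood between 4.3 and 8.51 CPM with PBS (median 7.24) and at 15.9, 12.7, 11.4 and 17.3 CPM with LPS, also without overlap (1.05 ± 0.20, adjusted p = 0.000563). Fanca was the only one of the 39 genes with its highest LPS level in mouse 8. Its targets Fancd2 (1.29 ± 0.32) and Fanci (1.80 ± 0.50) rose. Blm rose by 0.86 ± 0.31, a call lost in 6 of 13 fits that left out 1 library (PBS mouse 1, 4, 7 or 8, or LPS mouse 2 or 6; adjusted p up to 0.236). Brca2, a mediator of recombination repair and the least abundant of the 39 per kilobase of exon (0.172 CPM), did not pass, at 0.50 ± 0.32 (adjusted p = 0.234).

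**Figure D2:**
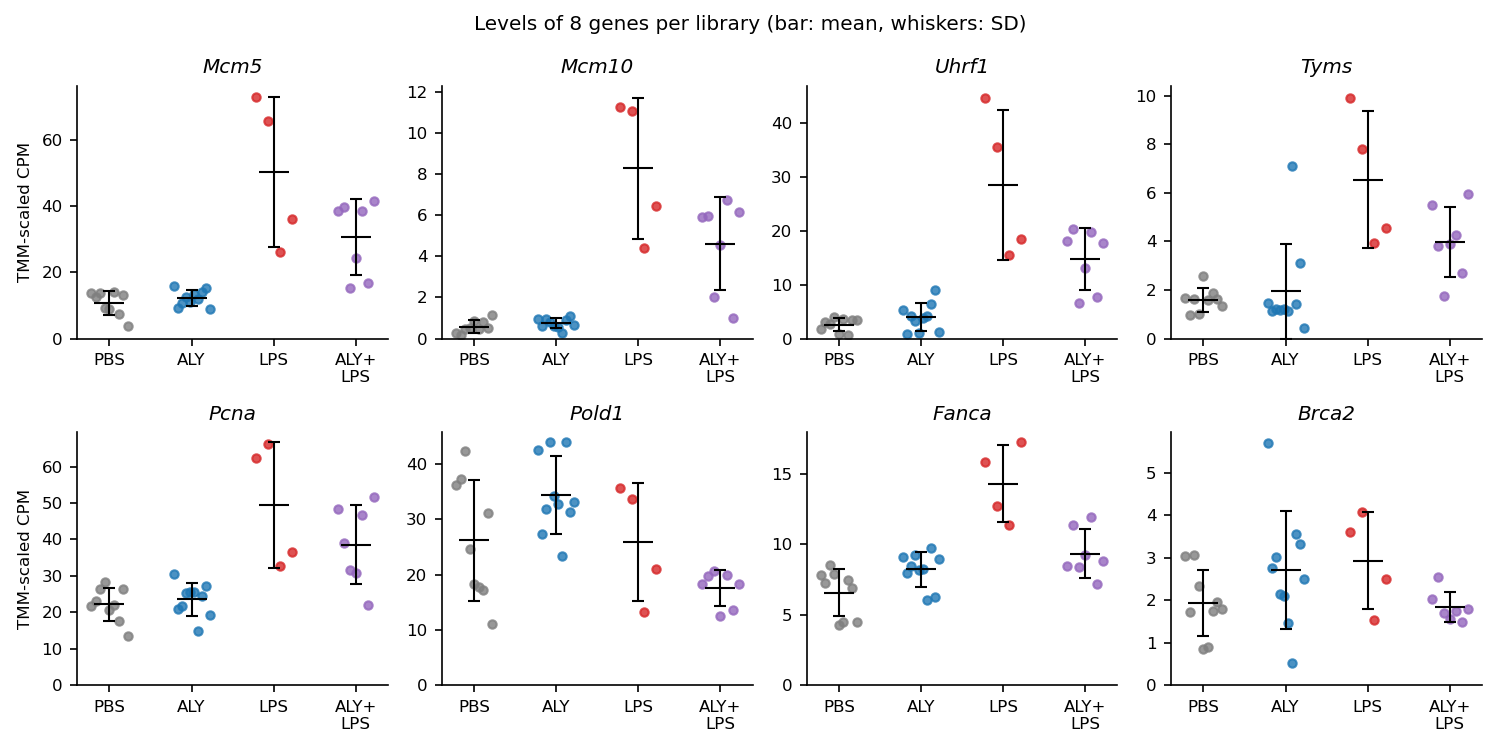
Levels of 8 genes in each library, in TMM-scaled CPM on a linear axis from 0, for the PBS, ALY688 (ALY), LPS and ALY688+LPS groups; points are mice, the horizontal bar is the mean and the whiskers are the SD. Mcm5, Mcm10, Uhrf1, Tyms and Pcna stand higher with LPS, Pold1 stands lowest in the mice given both agents, and Fanca is highest in the mice given LPS alone.

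The 4 LPS mice differed from each other in much the same order for most genes. Mouse 2 had the highest level for 26 of the 39 genes and mouse 6 for 12, and mouse 7 the lowest for 37. The mean log2 CPM of the 39 genes, used as a score for each library, was 3.68, 3.58, 2.38 and 2.90 in LPS mice 2, 6, 7 and 8, against 0.99 to 1.85 with PBS. Even the lowest LPS mouse lay above every PBS mouse. Globin took 28.4%, 18.4%, 43.7% and 31.0% of the counts in the same 4 mice. The summed level of 7 mature neutrophil markers was 7338, 4259, 13795 and 11198 CPM in that order, highest where the replication genes were lowest, and that of 10 immature neutrophil markers was 1212, 164, 617 and 373 CPM. The part of these differences in the result was not tested. Without LPS mouse 2, the library rich in Mpo, 28 of the tested members still rose and their median was 1.28, while 2176 of all genes were called higher.

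Marker genes of blood cells moved across the same comparison. With LPS, 7 of 7 mature neutrophil markers rose, as did the 5 tested of 10 immature neutrophil markers. Mpo, Elane, Ctsg, Ms4a3 and Fcnb of that list were not tested, and genes high with LPS enter the test more easily. In B cells 6 of 6 and in T cells 7 of 7 markers fell, while 4 of 5 NK cell markers rose. Of 6 monocyte markers 2 rose and 2 fell, and of 5 tested plasma cell markers 2 rose and 1 fell. Of 5 tested stem and progenitor markers 2 rose. Falls passed for 2 of 5 tested platelet and 1 of 10 tested erythroid markers. Over all genes tested 20.9% rose and 17.9% fell. Summed T cell markers ran from 31.0 to 47.8 CPM with LPS and from 59.9 to 253 CPM with PBS. When the globin percentage was added to the fit as a covariate, 4 of the 37 genes still passed as higher (Mcm10, Uhrf1, Cdc6 and Rrm2), Pold1 passed as lower (-1.69 ± 0.44, adjusted p = 0.00887), and the median was 0.51. Over all genes that fit called 13.1% higher and 13.3% lower, so the count of members called higher was no longer above the background. Globin ranges of the 2 groups do not overlap, and treatment and red cell share cannot be told apart in these libraries.

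LPS in mice also given ALY688 was examined in libraries none of which entered the comparison above. Of 36 tested genes 25 rose, 2 fell and 9 did not pass, against 26.4% of all 12266 genes rising and 26.6% falling. Here too, genes high with LPS enter the test more easily. Cdc6, Gins1 and Mcm10 were tested here but had too few counts in ALY688 against PBS. Orc1, Gins2 and Fen1 were not tested; without the filter on low counts they gave 1.45 ± 0.41 (adjusted p = 0.00659), 2.67 ± 0.41 (adjusted p = 5.7e-06) and 0.93 ± 0.41 (adjusted p = 0.087). The median log2 fold change was 0.74 (1.67-fold) against -0.05 over all genes. All 25 that rose had also risen with LPS alone; Orc6, Gins2, Rfc3, Fanca, Fancd2 and Blm had risen there only, of which Gins2 was not tested here. With the globin percentage as a covariate, 21 of the 36 rose, 2 fell and the median was 0.66. That fit called 3515 of all 12266 genes higher and 3417 lower. Globin ranges of these groups overlap. Whether the response is smaller with ALY688 is the interaction, given further on.

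By role, 6 of 6 MCM subunits, 3 of 3 nucleotide supply genes and 3 of 3 chromatin genes rose again, with 3 of 5 tested helicase activators, 7 of 10 polymerase and clamp genes, 1 of 3 licensing genes and 2 of 6 repair genes. Mcm10 stood between 0.263 and 1.11 CPM with ALY688 (median 0.716) and between 0.987 and 6.72 CPM with both agents (median 5.89). Only ALY688+LPS mouse 8, at 0.987 CPM, fell within the range of the other group (2.62 ± 0.29, adjusted p = 3.62e-07). Lig1 went from 2.35 to 7.88 CPM (median 5.11) to 7.65 to 19.8 CPM (median 17.8), with 1 library of each group overlapping (1.60 ± 0.21, adjusted p = 3.1e-06). Over all genes tested 12.7% lay higher and 5.85% lower with no overlap between the groups. Of the 36, Gins1 and Rrm1 rose in that way, by 1.81 ± 0.33 and 1.07 ± 0.15, a share below that of all genes. Both gaps were narrow. Gins1 was at most 0.959 CPM with ALY688 and at least 0.987 CPM with both agents, the latter from 4 counts in ALY688+LPS mouse 8. Rrm1 was at most 14.15 CPM with ALY688 and at least 14.2 CPM with both. Calls for Rfc5 (0.42 ± 0.16), Fanci (0.70 ± 0.25) and Rfc4 (0.69 ± 0.23) were lost in some of 17 fits that left out 1 library: for Rfc5 in 6, those without ALY688 mouse 2, 4 or 10 or ALY688+LPS mouse 1, 7 or 10 (adjusted p up to 0.109), for Fanci without ALY688+LPS mouse 1 or 3 (up to 0.064), and for Rfc4 without ALY688+LPS mouse 10 (0.081). Leaving out 1 library also made calls: Fancd2 higher without ALY688 mouse 7 (adjusted p = 0.0147), Gins4 higher without ALY688+LPS mouse 1 (0.044), and Orc6 higher without ALY688 mouse 1 or ALY688+LPS mouse 4 or 6 (0.023 at the lowest).

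Pold1 fell. It stood between 23.4 and 44.0 CPM with ALY688 (median 32.9) and between 12.5 and 20.6 CPM with both agents (median 18.3), so that every mouse given both lay below every mouse given ALY688 alone. The log2 fold change was -0.98 ± 0.13 (adjusted p = 3.98e-06), the only fall among the 39 without overlap. Cdt1 fell too, by 0.38 on the log2 scale (SE 0.12, adjusted p = 0.012), with overlap between the groups. Without TMM scaling neither fall passed (Pold1 at -0.86, adjusted p = 0.082; Cdt1 at -0.26, adjusted p = 0.669), and with a block for the mouse number Cdt1 did not (adjusted p = 0.061). Brca2, at -0.58 ± 0.28 (adjusted p = 0.084), passed as lower without ALY688 mouse 6 or 7.

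**Figure D3:**
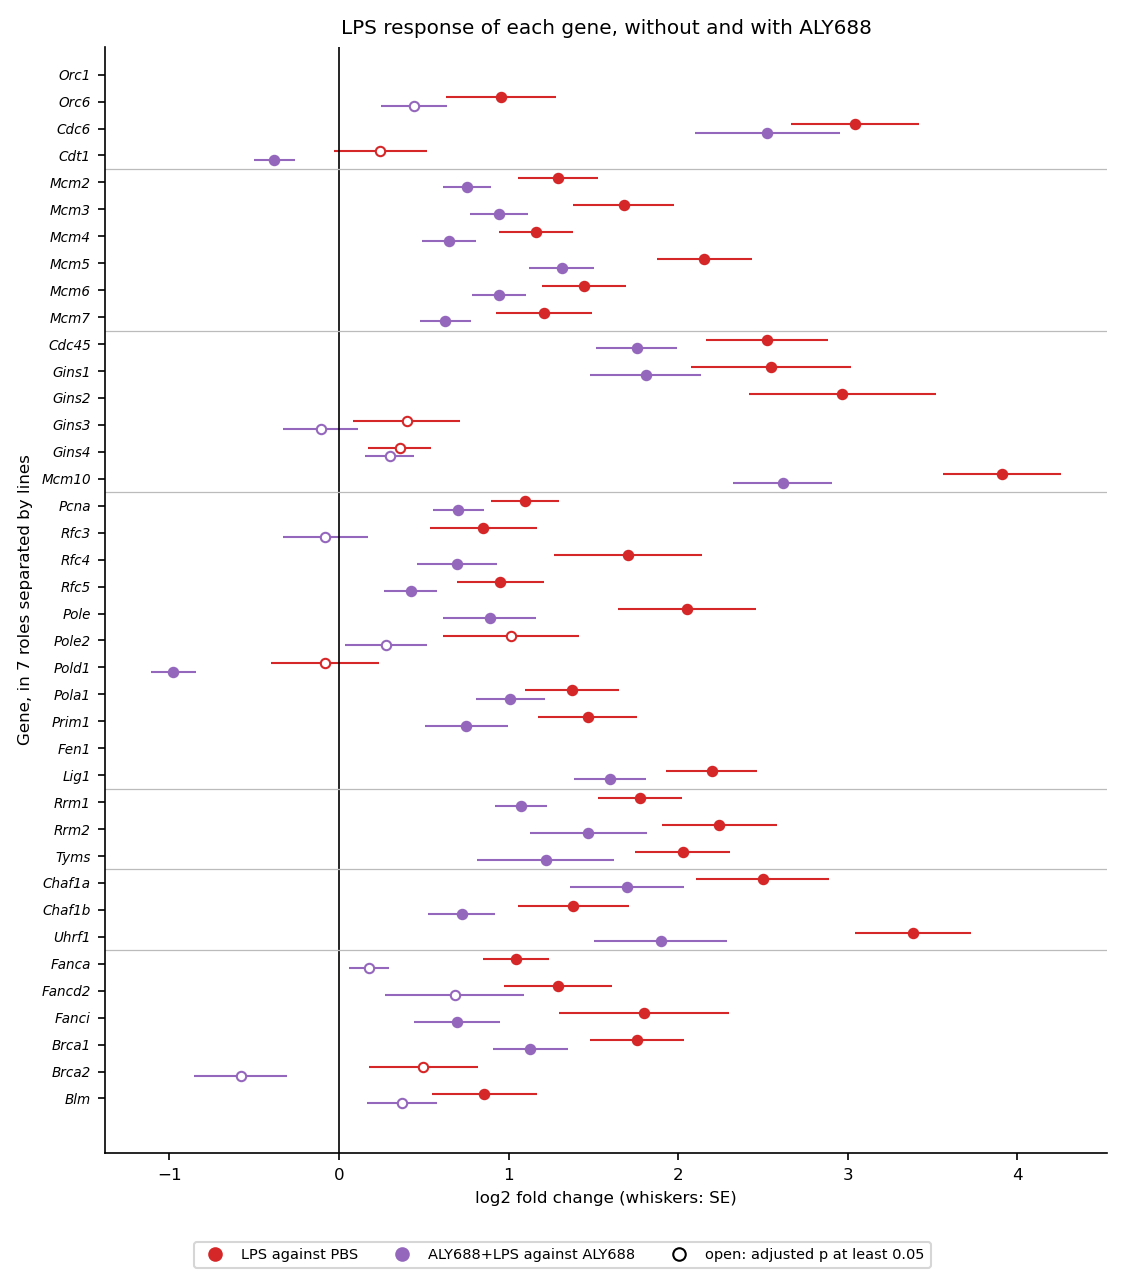
Log2 fold change of each gene with its SE for LPS against PBS (red) and for ALY688+LPS against ALY688 (purple); filled points passed at an adjusted p below 0.05, and genes without a point were not tested. Most points lie right of 0 in both comparisons, Mcm10, Uhrf1 and Cdc6 farthest with LPS alone, and Pold1 and Cdt1 lie left of 0 with filled purple points.

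ALY688 alone was compared with PBS in mice not given LPS. None of the 33 genes tested passed, and neither did any other gene: 0.0% of 11708 were called in either direction by edgeR, DESeq2 called none, and 1250 genes had an unadjusted p under 0.05 in edgeR (1656 in DESeq2). Of the 39, Orc1, Cdc6, Gins1, Gins2, Mcm10 and Fen1 had too few counts to be tested. The median was 0.16 (range -0.05 to 0.66) against 0.03 over all genes, and it was 0.09 without PBS mouse 9. Estimates of 28 of the 33 lay above 0, as did 53.6% of all genes tested. The 3 smallest p-values belonged to Fanca, Rfc4 and Pold1. Fanca stood between 4.3 and 8.51 CPM with PBS and between 6.05 and 9.73 CPM with ALY688 (0.27 ± 0.12, unadjusted p = 0.038, adjusted p = 0.442, edgeR, n = 9 and 10). Rfc4 stood between 0.0 and 2.29 CPM with PBS (median 1.29) and between 1.23 and 2.76 CPM with ALY688 (median 2.0), with a change of 0.66 ± 0.32 (adjusted p = 0.442, 95% interval 0.04 to 1.29). Pold1 gave 0.36 ± 0.19 (adjusted p = 0.442). For Pcna, which is well counted, the 95% interval ran from -0.18 to 0.28, so a change as large as that with LPS lies outside it.

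ALY688 was then compared within the LPS mice. Estimates for all 39 genes lay below 0, from -0.92 (Uhrf1) to -0.07 (Gins4), with a median of -0.54 (1.45-fold lower) against 0.00 over all genes. Of all genes tested, 49.8% lay above 0. None passed: 0.0% of 12741 genes were called in either direction by edgeR, DESeq2 called none, and an unadjusted p under 0.05 was found for 463 genes in edgeR (635 in DESeq2), 9 of them among the 39. For every one of the 39 the groups overlap, as they do for nearly all genes tested (0.0628% lay wholly higher and 0.165% wholly lower). Without LPS mouse 2 the median was -0.33, and without LPS mouse 7 it was -0.74. The 4 LPS libraries are the same that entered the comparison with PBS, so a high level in them raises that result and lowers this one.

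Fanca had the smallest p of the 39. It stood at 15.9, 12.7, 11.4 and 17.3 CPM in LPS mice 2, 6, 7 and 8 and between 7.16 and 11.98 CPM with both agents (median 8.8). Overlap came from LPS mouse 7 at 11.4 CPM, below ALY688+LPS mouse 7 at 11.98 CPM, and the log2 fold change was -0.59 ± 0.16 (unadjusted p = 0.00254, adjusted p = 0.913, edgeR). It ranged from -0.67 to -0.50 over the 11 fits that left out 1 library. Uhrf1 stood at 44.8, 35.5, 15.6 and 18.5 CPM with LPS and between 6.6 and 20.3 CPM with both (median 17.7), where LPS mice 7 and 8 lie within the other group's range (-0.92 ± 0.34, unadjusted p = 0.0199, adjusted p = 0.913, edgeR). Brca2 stood at 3.61, 4.08, 1.53 and 2.49 CPM with LPS and between 1.48 and 2.55 CPM with both (median 1.75), also overlapping (-0.65 ± 0.26, unadjusted p = 0.0255, adjusted p = 0.913, edgeR). By role the medians were -0.69 for nucleotide supply, -0.61 for repair, -0.59 for chromatin, -0.57 for licensing, -0.54 for helicase activation, -0.49 for the MCM ring and -0.41 for polymerases and clamp.

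Cell markers differed in the same comparison without any passing the test. All 11 erythroid markers had estimates above 0 (median 1.18), as did 7 of 7 T cell markers (median 0.52). The 6 tested of 10 immature neutrophil markers lay below 0 (median -1.19). Mean log2 CPM of these 10 markers was 5.65 in LPS mouse 2 and 1.31, 1.06 and 0.94 in LPS mice 6, 7 and 8. In mice given both agents it ran from -0.10 to 1.64, so only LPS mouse 2 lay outside that range. Also above 0 were 6 of 6 B cell markers (median 0.45) and 5 of 5 tested platelet markers (median 0.38). So were 6 of 7 mature neutrophil, 4 of 6 monocyte and 3 of 5 tested plasma cell markers. Below 0 lay 5 of 5 NK cell markers (median -0.48) and 4 of 5 tested stem and progenitor markers. With the globin percentage as a covariate the median of the 39 genes was -0.21. The part of these cells in the difference was not tested.

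**Figure D4:**
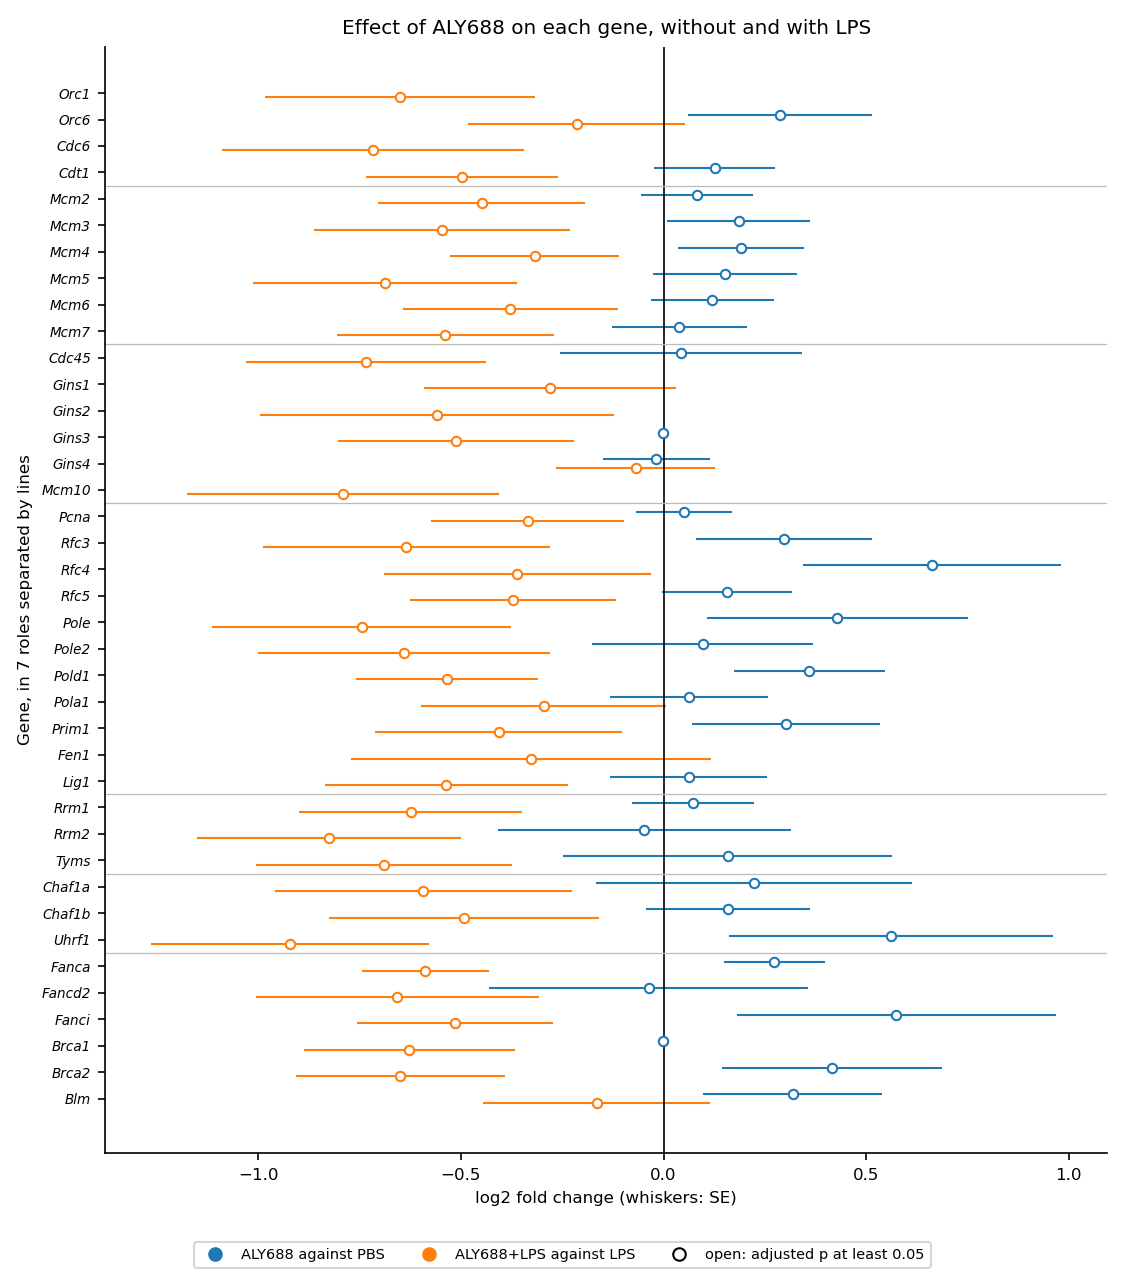
Log2 fold change of each gene with its SE for ALY688 against PBS (blue) and for ALY688+LPS against LPS (orange); open points did not pass at an adjusted p of 0.05, genes without a blue point were not tested there, and the SE is left out for Gins3 and Brca1 without LPS, whose estimates are within 0.01 of 0. All 39 orange points lie left of 0, 28 of 33 blue points lie right of it, and no point is filled.

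The interaction asks whether the effect of ALY688 differs with LPS, or equally whether the LPS response differs with ALY688. It was estimated below 0 for all 39 genes, from -1.49 (Uhrf1) to -0.06 (Gins4), with a median of -0.71 against -0.03 over all 13476 genes tested. Of all genes, 46.8% lay above 0. The 39 genes moved together by library, with LPS mouse 2 highest for 26 of them and LPS mouse 6 for 12. Their like signs are therefore not 39 separate observations. No gene passed in edgeR (0.0% in either direction), though 1217 had an unadjusted p under 0.05, 13 of them among the 39. DESeq2 called 1 gene above 0 and 3 below 0, none of them among the 39, and found 1558 at an unadjusted p under 0.05. The smallest p-values of the 39 were those of Fanca (-0.87 ± 0.21, unadjusted p = 0.000281), Pold1 (-0.90 ± 0.32, unadjusted p = 0.00867) and Mcm10 (-1.31 ± 0.48, unadjusted p = 0.0108), each with an adjusted p of 0.506 in edgeR. Fanca rose with LPS alone by 1.05 and gave 0.18 ± 0.12 (adjusted p = 0.209) in mice also given ALY688. The difference between these values is not shown, since the interaction did not pass. Without LPS mouse 2 the median was -0.48, and with the globin percentage as a covariate it was -0.27. In fits that left out 1 library, the estimate of Gins4 reached 0.03.

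**Figure D5:**
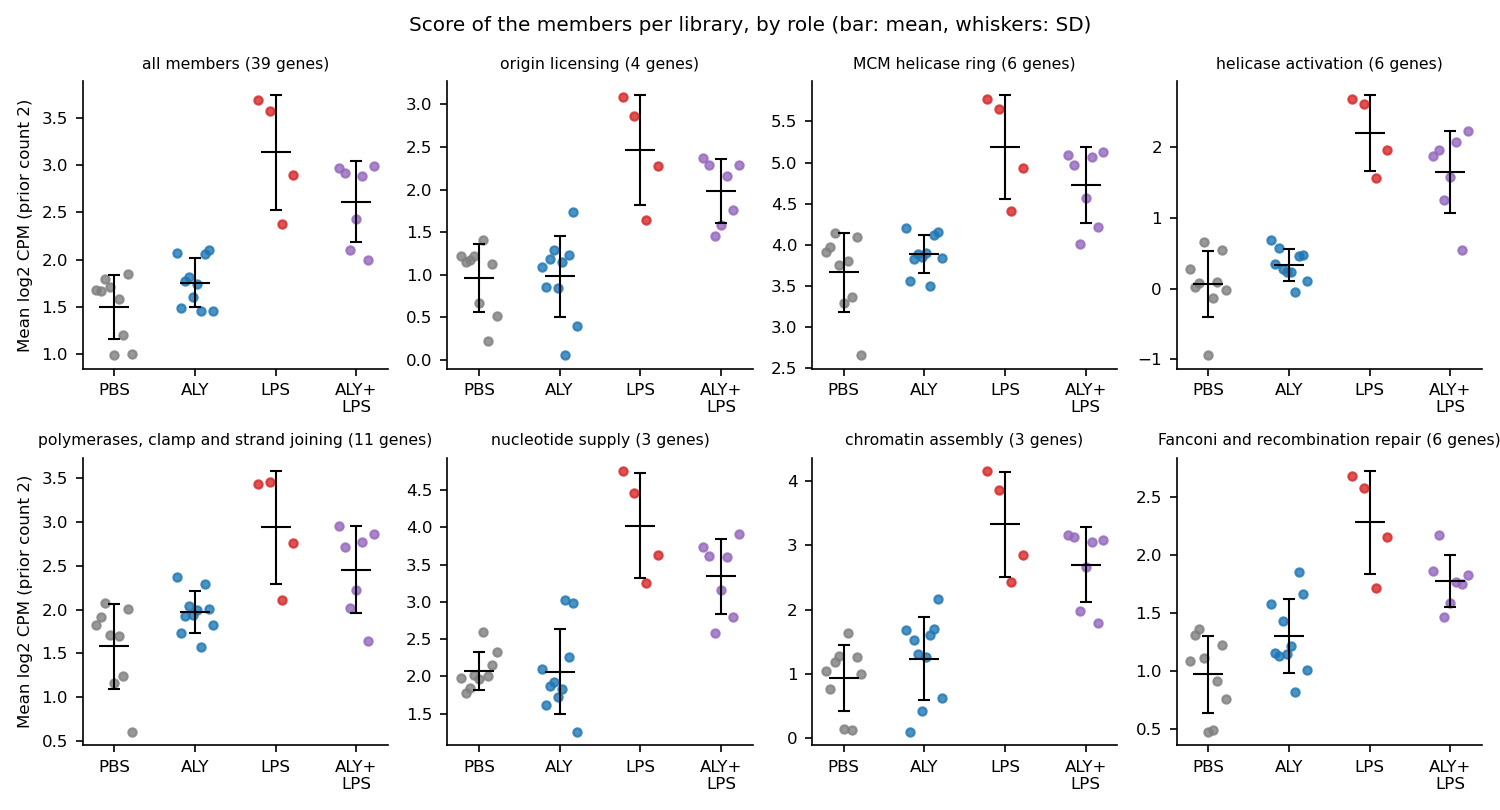
Mean log2 CPM (prior count 2) of all 39 genes and of each of the 7 roles in every library, by group (ALY is ALY688); points are mice, bars the mean and whiskers the SD. In each panel the LPS mice are spread over a wide range whose lower points fall among the ALY688+LPS mice.

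The score over all 39 genes averaged 1.499 ± 0.34 (SD, n = 9) with PBS, 1.76 ± 0.26 (n = 10) with ALY688, 3.14 ± 0.61 (n = 4) with LPS and 2.61 ± 0.43 (n = 7) with both. LPS mice 2 and 6 (3.68 and 3.58) lay above all others. LPS mice 8 and 7 (2.90 and 2.38) lay among the 2.00 to 2.99 of the mice given both agents. ALY688+LPS mice 8 and 4, at 2.00 and 2.10, overlapped with the highest of the ALY688 mice at 2.11. No p is given for the score, since the genes were chosen with results of these data known.

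Lists of other genes of the same processes were counted in the same fits. Of 45 other replication genes, all tested, 21 rose and 6 fell with LPS against PBS, beside 20.9% and 17.9% of all genes tested. Their median log2 fold change was 0.54. The smallest p-values were those of Asf1b, a histone chaperone (2.09 ± 0.29), Gmnn, the inhibitor of Cdt1 (2.23 ± 0.33), Rnaseh2b, of the enzyme that removes ribonucleotides from DNA (1.47 ± 0.25), and Mcmbp, an MCM-binding protein (0.84 ± 0.15). Among 27 other Fanconi and recombination genes 8 rose and 1 fell (median 0.31). Among those that rose were Rad54l, a motor protein of recombination (2.94 ± 0.34), and Brip1, a helicase that binds Brca1 (2.87 ± 0.48). In the presence of ALY688, LPS raised 14 of 44 tested replication genes and lowered 9, and raised 7 of 27 repair genes and lowered 9, among them Fancm (-1.40 ± 0.20). Of all genes tested there, 26.4% rose and 26.6% fell, so the counts of these lists lie near the shares over all genes.

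Of 24 genes for E2F factors, pocket proteins and G1/S cyclins, 11 rose and 1 fell with LPS against PBS, beside 20.9% and 17.9% of all genes tested. E2f1, an activator of replication genes, stood between 1.35 and 4.28 CPM with PBS and between 8.89 and 14.8 CPM with LPS (2.24 ± 0.25). E2f8, a repressor induced in S phase, rose by 2.70 ± 0.31. Cdkn1a, the p21 inhibitor of cyclin-dependent kinases and of Pcna, rose too, from 0.675 to 4.31 CPM with PBS to 14.5 to 27.3 CPM with LPS (3.15 ± 0.30), and by 3.95 ± 0.24 with LPS in mice given ALY688. In LPS against PBS, 7 of the 9 tested members with an E2F match before the start rose, as did 19 of the 22 tested without one; the untested Orc1 has a match and the untested Fen1 has none.

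Most tested mitotic genes rose in the same comparisons as the replication genes. Of 25 tested, 23 rose with LPS against PBS (median 2.50), beside 20.9% of all genes tested. The smallest p-values of the mitotic list were those of Aurkb (2.81 ± 0.30), Anln (3.33 ± 0.41), Top2a (2.88 ± 0.36) and Cdk1 (3.51 ± 0.45). In the presence of ALY688, 21 of 25 rose with LPS (median 1.46), beside 26.4% of all genes tested. For ALY688 within LPS, 24 of 26 lay below 0 and none passed (median -0.74, adjusted p at least 0.913). Library by library the 2 lists did not always go together. Summed mitotic level was 2456.5 CPM in ALY688+LPS mouse 8 (group median 574.5) and 1548 CPM in ALY688 mouse 7 (group median 278). The score of the 39 genes was 2.00 and 1.46 there (group medians 2.88 and 1.76), and globin took 54.3% and 60.8% of counts. Mean log2 CPM of the mitotic list was 2.73 and 1.62 (group medians 2.88 and 1.48). Whether mitotic and replication genes differ in their response was not tested.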

How the data were processed

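Poly-T-captured RNA from mouse blood was sequenced. The authors deposited raw counts (whole reads for each gene, without normalization) in 1 table per mouse, used here for 30 of 34 labelled samples. Not analysed here are LPS mice 3, 4 and 5 and PBS mouse 10. The submitters' processing notes name HISAT2 2.0.5, an aligner, and featureCounts 1.5.0-p3, a read counter; for genome build, annotation and strand setting the sources used here say nothing. Without the strand, the 16 genes whose exons share bases with another gene are uncertain, above all the 8 with over 10% shared: Fen1 (78.8%), Gins2, Chaf1a, Fanci, Rfc4, Orc1, Rfc5 and Fanca. Symbols, exons and coordinates come from GENCODE M21 (GRCm38), which held 54495 of 54532 IDs, and promoters from RefSeq.

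The members and lists were chosen with earlier results of these data known. Groups were taken from the sample titles, and each numbered mouse is 1 replicate. All genes were tested by quasi-likelihood in edgeR 4.0.16 (R 4.3.3; TMM scaling, filterByExpr, robust fit, two-sided) for 5 comparisons, with only the groups compared in each fit and all 4 in the interaction, and Benjamini-Hochberg adjustment over all genes tested. Standard errors were derived from the F statistic, and 95% intervals are normal. Levels are TMM-scaled CPM over all libraries, on which 3 counts, the floor of detection, stood between 0.0725 CPM (LPS mouse 6) and 0.860 CPM (PBS mouse 5); this covers counting error only. No 2 libraries of a group agreed within sampling noise (chi-square per degree of freedom at least 8.75). Alternatives were DESeq2 1.42.0, no low-count filter, no TMM, leaving out each library, a block for the mouse number, leaving out libraries with fewer than 16000 genes, and the globin percentage as a covariate. The fit was tested on simulated data.

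Genes named with values from every group are, per role, the 2 with the smallest p in LPS against PBS, the 3 with the smallest p in each other comparison, and the highest and lowest per kilobase; from each other list up to 4 with the smallest p, not all of which are reported here.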

Additional observations from a re-analysis of the deposited data

Results flagged for a closer look

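For each of the 39 genes and for their mean score, the highest or lowest library of each group was set against the rest of that group. In 9 of these 160 sets, all of them single genes, 1 library stood far from the others. Chance gives about 1 in 20, so the number of flags is near the chance rate. Each stood on the high side. Fancd2 accounts for 3 of the 9: 3.60 CPM in PBS mouse 9 (next 2.01), 5.79 in ALY688 mouse 7 (next 2.26) and 5.92 in ALY688+LPS mouse 8 (next 3.26), and all 3 of these libraries have fewer than 16000 genes with a count. ALY688 mouse 7 also stood out for Tyms, at 7.10 CPM (next 3.12), and Gins2, at 1.58 CPM (next 0.617). The others were Cdc6 in ALY688 mouse 9 at 2.57 CPM (next 1.04), Gins1 in PBS mouse 4 at 1.12 CPM (next 0.513), Chaf1a in PBS mouse 6 at 4.06 CPM (next 2.03) and Chaf1b in ALY688 mouse 1 at 3.97 CPM (next 2.50). No interaction of ALY688 and LPS passed for any of the 39 genes. Globin took 58.1% of counts in PBS mouse 9, 60.8% in ALY688 mouse 7 and 54.3% in ALY688+LPS mouse 8. The medians of their groups were 56.1%, 47.4% and 39.8%. What the flagged libraries share was not tested.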

How the results depend on the processing

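The direction of each comparison's median held under every alternative run. With TMM scaling left off, the all-gene median was 0.50, -0.49, 1.04, 0.03 and -0.998 in ALY688 against PBS, ALY688+LPS against LPS, LPS against PBS, ALY688+LPS against ALY688 and the interaction, and that of the 39 genes 0.61, -1.08, 2.57, 0.88 and -1.73; relative to all genes that is 0.11, -0.58, 1.53, 0.85 and -0.73. Calls over all genes with LPS against PBS then split 5600 higher and 296 lower in place of 2577 and 2208, and with ALY688+LPS against ALY688 1845 and 1204 in place of 3236 and 3268, where 17 of the 36 tested members rose and 0 fell. With the globin percentage as a covariate, LPS against PBS gave 4 of 37 genes higher (13.1% of all genes), 1 lower (13.3% of all) and a median of 0.51, with Mcm7 at -0.039, Rfc3 at -0.070, Prim1 at -0.063 and Fanci at -0.038, now below 0, and the interaction median was -0.27. With the same covariate, ALY688+LPS against ALY688 gave 21 of 36 genes higher, 2 lower and a median of 0.66. Of all 12266 genes, 3515 were called higher and 3417 lower there. Leaving out 1 library at a time gave, for LPS against PBS, 28 (without LPS mouse 2) to 34 members higher and medians of 1.28 to 1.71. Of all genes, 2176 to 2671 were called higher in those fits. For ALY688+LPS against ALY688, such fits gave 23 to 27 members higher, 2 to 3 lower and medians of 0.69 to 0.86. There 3055 to 3477 of all genes were called higher and 3003 to 3485 lower. Medians ran from 0.09 to 0.20, -0.74 to -0.33 and -0.92 to -0.48 for ALY688 against PBS, ALY688+LPS against LPS and the interaction, with no gene of the 39 called. Without libraries of few detected genes, 30 of 37 tested members rose with LPS against PBS, beside 2735 of 12303 genes. With LPS beside ALY688, 31 of 39 rose, beside 3846 of 12735 genes. Mouse numbers do not pair the samples (correlations of same-numbered mice from -0.53 to 0.33). With a replicate block 27 of 37 tested members rose with LPS against PBS, beside 1976 of all 12353 genes. With ALY688+LPS against ALY688, 21 of 36 rose and 1 fell, beside 2562 and 2308 of all 12266 genes. The cause of these shifts was not tested. The 4 LPS libraries limit every comparison that uses them.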
